A study of Homo sapiens with 6 samples.

Results

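The ABC transporter genes were taken as all autosomal protein-coding genes whose symbol is ABCA, ABCB, ABCC, ABCD, ABCE, ABCF or ABCG followed by a number, which gave 43 of 19126 autosomal protein-coding genes. Peaks of open chromatin were assigned to a gene in 2 ways. An end peak had its midpoint within 1 kb of either end of the gene's span, and a span peak overlapped the span on GRCh38. The rule used symbols and positions only.

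ABC transporters are membrane proteins that bind and hydrolyse ATP to move a substrate across a membrane. The family is named after this ATP-binding cassette, and its letters A to G mark subfamilies by sequence. Several members, among them ABCB1, ABCC1 and ABCG2, pump chemotherapy drugs out of tumour cells, while others export cholesterol and phospholipids, load surfactant lipid, or serve mitochondria, lysosomes and peroxisomes. ABCE1 and the ABCF proteins carry the cassettes but no membrane part, and act in translation and ribosome recycling.

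Chromatin was profiled by ATAC-seq, in which a transposase inserts sequencing adapters into open DNA, in NCI-H1703, an established human cell line that the labels assign to lung squamous cell carcinoma. In 3 libraries the long non-coding RNA DLGAP1-AS2 had been silenced (titles ASO) and 3 libraries were controls (titles NC). All 6 came from this 1 line, and the labels neither describe the silencing reagent beyond that title nor give the time after treatment, and do not say whether replicates were separate cultures, so the spread between libraries may be technical. RNA was not measured in these libraries, so silencing could not be checked. The DLGAP1-AS2 gene had an end peak in every library, with heights of 29, 30 and 14 in the silenced and 21, 34 and 23 in the control libraries. Height here is the deposited pileup, the fragment pileup that the peak caller assigned to the peak.

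Libraries differed in depth. Total read numbers were not given in the sources used here. The lowest background coverage implied by the peak lists was 0.237 in silenced replicate 3 against 0.369 to 0.464 in the other 5. The lists held 88879 to 165262 autosomal peaks, fewest in control replicate 2. Control replicate 2 nevertheless had the highest such coverage (0.464) and a median height of 8, against 3 or 4 in the others. Silenced replicate 3 also stood apart in the ranking of gene-end peaks, with correlations of 0.821 to 0.839 with the other libraries against 0.903 to 0.911 among those. Results are therefore given with and without it where they change. Among 6 squamous markers only SOX2 had an end peak in all 6 libraries. TP63, KRT5, KRT14 and DSG3 had weak end peaks in 1 to 4 libraries and KRT6A in none. Of 4 lung adenocarcinoma and alveolar markers, NKX2-1, NAPSA and SFTPC had end peaks in all 6. Heights were 16 to 36 at NKX2-1 but only 5 to 12 at NAPSA and 5 to 11 at SFTPC. Both mesenchymal markers, VIM and ZEB1, did so too, whereas neither epithelial marker (EPCAM, CDH1), none of 3 leukocyte markers and neither endothelial marker did. The keratins and TP63 that define squamous cells were thus not marked by strong open ends in these cells. Only the ends of the spans were examined for these markers, not starts inside them.

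The bases upstream of the outermost listed start sites show a contrast among the drug pumps, and 6 of them are printed for that reason. Each line gives the 250 bases before the outermost start listed by RefSeq (GRCh38.p14), read 5′ to 3′ on the gene's strand, with every CG dinucleotide in capitals. The first 3 genes had a peak at this start in all 6 libraries and the last 3 in none.
ABCC4, chr13:95301452-95301701, minus strand: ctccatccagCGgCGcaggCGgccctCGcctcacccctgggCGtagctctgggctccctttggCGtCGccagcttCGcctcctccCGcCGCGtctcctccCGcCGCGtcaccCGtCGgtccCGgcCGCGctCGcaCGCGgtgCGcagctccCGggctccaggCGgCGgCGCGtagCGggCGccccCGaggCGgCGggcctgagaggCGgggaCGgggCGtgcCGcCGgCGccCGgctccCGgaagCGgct
ABCC5, chr3:184017885-184018134, minus strand: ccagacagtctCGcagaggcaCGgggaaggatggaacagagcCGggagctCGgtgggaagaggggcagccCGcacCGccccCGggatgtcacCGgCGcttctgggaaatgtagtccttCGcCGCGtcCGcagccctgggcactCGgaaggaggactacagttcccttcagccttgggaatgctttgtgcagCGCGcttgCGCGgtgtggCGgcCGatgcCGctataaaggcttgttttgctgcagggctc
ABCC10, chr6:43427291-43427540, plus strand: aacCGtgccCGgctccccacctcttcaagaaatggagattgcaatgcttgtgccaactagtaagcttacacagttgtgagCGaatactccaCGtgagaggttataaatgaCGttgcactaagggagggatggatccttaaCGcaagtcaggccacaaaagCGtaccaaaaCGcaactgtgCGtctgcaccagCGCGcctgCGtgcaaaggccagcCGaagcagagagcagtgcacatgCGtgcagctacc
ABCB1, chr7:87713296-87713545, minus strand: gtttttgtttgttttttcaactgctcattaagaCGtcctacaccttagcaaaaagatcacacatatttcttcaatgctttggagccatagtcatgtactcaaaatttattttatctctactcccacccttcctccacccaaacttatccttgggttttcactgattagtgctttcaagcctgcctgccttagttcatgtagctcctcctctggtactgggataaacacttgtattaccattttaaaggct
ABCC2, chr10:99782390-99782639, plus strand: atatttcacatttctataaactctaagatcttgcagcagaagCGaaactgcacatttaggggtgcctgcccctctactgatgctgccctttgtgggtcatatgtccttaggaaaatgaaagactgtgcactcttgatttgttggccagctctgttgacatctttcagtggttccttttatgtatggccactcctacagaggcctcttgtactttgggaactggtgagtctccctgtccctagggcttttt
ABCG2, chr4:88231627-88231876, minus strand: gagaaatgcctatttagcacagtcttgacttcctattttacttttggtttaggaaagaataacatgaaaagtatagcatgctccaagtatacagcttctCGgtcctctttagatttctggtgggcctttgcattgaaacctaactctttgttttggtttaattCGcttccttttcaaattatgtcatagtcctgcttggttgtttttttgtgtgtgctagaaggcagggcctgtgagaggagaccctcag
The CG dinucleotide occurs 42, 21 and 14 times in the 250 bases of ABCC4, ABCC5 and ABCC10. It occurs 1 time each in those of ABCB1 and ABCC2 and 2 times in that of ABCG2. All 6 windows lie outside the gene's own span. ABCB1 has another listed start at chr7:87600884, and ABCG2 has others from chr4:88158639 to 88159290. No library had a peak at these inner starts, and the bases upstream of them were not examined.

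Of the 43 ABC genes, 19 (44.2%) had an end peak in all 6 libraries, against 11221 of 19126 genes (58.7%). A further 15 had one in 1 to 5 libraries (34.9%, against 25.7% of all genes), and 9 in none (20.9%, against 15.7%). The 9 genes were ABCA4, ABCA12, ABCB1, ABCB4, ABCB11, ABCC2, ABCC3, ABCD3 and ABCG2. A filter on weak peaks changed the count of 19 little. With peaks at an FDR of at most 1e-05, 17 remained, without ABCA3 and ABCC1. With midpoints within 500 bp of an end, 17 remained as well, without ABCA2 and ABCB6. Leaving out any 1 library gave 19 or 20.

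**Figure D1:**
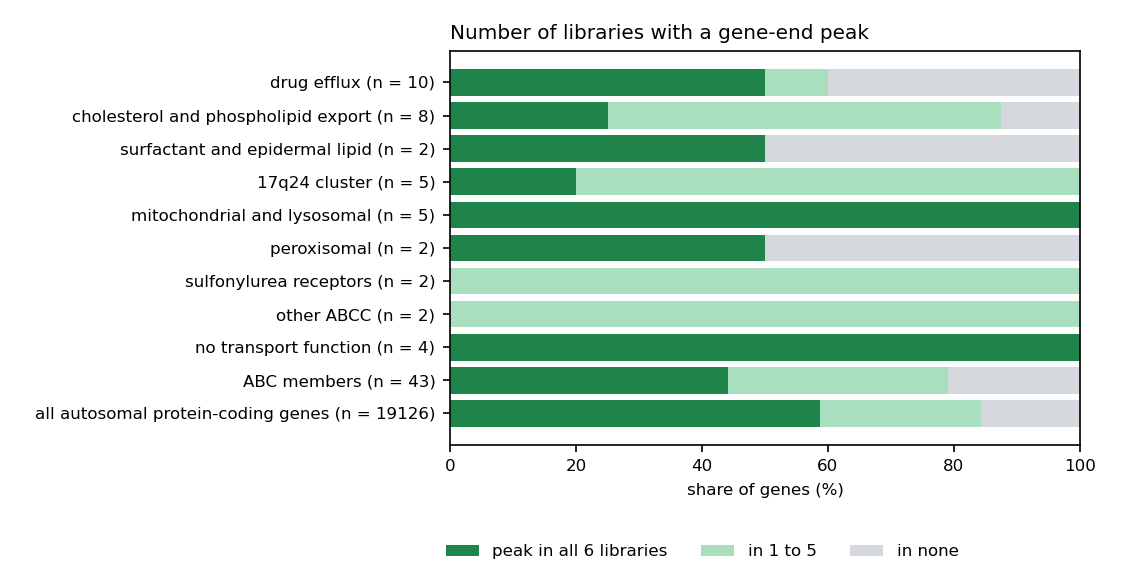
Share of genes (horizontal axis, percent) with an end peak in all 6 libraries, in 1 to 5 or in none, for the role groups of at least 2 ABC genes, for all 43 ABC genes and for all 19126 autosomal protein-coding genes. The mitochondrial and lysosomal group and the group with no transport function are filled by genes with a peak in all 6 libraries, while 4 of 10 drug pumps have none.

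The number of ABC genes with an end peak was 23, 25 and 25 in the silenced and 26, 21 and 24 in the control libraries. The silenced libraries averaged 24.3 ± 1.15 genes (SD, n = 3) and the controls 23.7 ± 2.52 (SD, n = 3). The groups overlapped and the difference of 0.667 genes was smaller than the spread between libraries. No ABC gene had an end peak in all 3 libraries of 1 group and none of the other. Over all genes this occurred in 0.0837% toward the silenced and 0.199% toward the control group, far below 1 gene in 43. The largest gap was at ABCB5, a transporter known from pigment cells, with weak end peaks in 2 control libraries (heights 3 and 2) and no silenced library.

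The 10 multidrug transporters split into 5 with an end peak in all 6 libraries (ABCC1, ABCC4, ABCC5, ABCC10, ABCC11), 4 with none (ABCB1, ABCC2, ABCC3, ABCG2) and ABCB5. ABCC10 (chr6:43427541-43451994), a multidrug resistance protein, had start peaks of height 85, 100 and 46 in the silenced and 72, 96 and 76 in the control libraries. ABCC5 (chr3:183919934-184017884), an exporter of cyclic nucleotides and nucleotide analogues, had heights of 93, 80 and 32 against 73, 90 and 66. ABCC4 (chr13:95019835-95301451), which exports cyclic nucleotides and prostaglandins, had 39, 55 and 13 against 40, 43 and 46. In these 3 genes silenced replicate 3 was the lowest of the 6 libraries and the other 5 overlapped between the groups. The ABCC4 peak also lies within 1 kb of an end of LOC102724149.

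ABCC1 (chr16:15949143-16143053), which exports glutathione conjugates and many anticancer drugs, had a weak peak at the left end of its span. Its heights were 6, 9 and 2 in the silenced and 8, 8 and 8 in the control libraries. The FDR was 0.28 in its weakest library, and the peak also lies within 1 kb of an end of LOC107984869. ABCC11 (chr16:48164819-48247539, minus strand), the earwax and nucleotide-analogue transporter, had its strongest end peak 240 to 362 bp inside the far end of the gene and none at its outermost start. Heights there were 17, 18 and 16 against 16, 19 and 20.

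ABCB1 (chr7:87503017-87713295), which encodes P-glycoprotein, had no peak within 1 kb of either of its 2 listed starts. ABCG2 (chr4:88090264-88231626), the breast cancer resistance protein, had none at any of its 5. ABCB1 did hold 2 regions called in all 6 libraries inside its span, and the stronger of them (chr7:87627612-87628675; heights 33, 41 and 10 against 33, 33 and 23) lies at an end of the neighbouring gene RUNDC3B. ABCG2 held no region called in all 6 libraries. ABCC3 (chr17:50634881-50692253), an exporter of conjugated bile acids, had no end peak but 3 regions in all 6 libraries inside its span. The strongest of these regions by median height lies 4299 bp from the nearer end of the span, with heights of 37, 30 and 13 in the silenced and 35, 30 and 41 in the control libraries.

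Among the 8 cholesterol and phospholipid exporters only 2, ABCA2 and ABCA7, had an end peak in all 6 libraries. ABCA2 (chr9:137007234-137028922, minus strand), a lipid transporter of late endosomes, had heights of 31, 29 and 17 in the silenced and 20, 23 and 22 in the control libraries. ABCA7 (chr19:1040107-1065572), a phospholipid exporter, had 61, 83 and 31 against 48, 76 and 69. The heights of both groups overlapped at both genes, and both peaks also lie within 1 kb of an end of another gene (FUT7 and CNN2).

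ABCA1, which loads cholesterol onto apolipoprotein A-I, had end peaks in 5 libraries. The strongest by fold enrichment lay at the far end, with heights of 3 to 7, and 3 libraries also had a peak at the start, of height 5 and 8 in silenced replicates 1 and 2 and 7 in control replicate 3. Its strongest region, called in all 6, lies 1526 bp inside the start (chr9:104926338-104926921; heights 29, 48 and 10 against 31, 38 and 34) and coincides with an end of LOC105376196. The sterol half-transporters ABCG5 and ABCG8 sit head to head and shared 1 end peak, of height 4, in silenced replicate 3 alone. ABCG1 had an end peak in 1 control library and ABCG4 in 1 silenced library, while ABCB4, which moves phosphatidylcholine into bile, had none.

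All 5 mitochondrial and lysosomal genes (ABCB6, ABCB8, ABCB9, ABCB10, ABCD4) had start peaks in every library. So had all 4 genes with no transport function (ABCE1, ABCF1, ABCF2, ABCF3). At ABCB6 the midpoint of the peak lay 876 to 928 bp inside the gene. The peaks of ABCB8, ABCB9, ABCD4, ABCE1 and ABCF2 also lie within 1 kb of an end of another gene (LOC124901777, OGFOD2, VRTN, ANAPC10 and ABCF2-H2BK1). ABCB8, of the inner mitochondrial membrane, had the highest peaks in the family in all 6 libraries, with heights of 109, 105 and 60 in the silenced and 99, 122 and 103 in the control libraries. ABCF2, a translation-related ATPase, had the highest fold enrichment in the family in 5 of 6 libraries, and ABCC5 in silenced replicate 1. Its mean percentile among all genes with an end peak in the same library was 94.0 ± 3.52 (SD, n = 3) in the silenced and 96.5 ± 1.76 (SD, n = 3) in the control libraries. The 19 genes with an end peak in all 6 libraries had a median percentile of 59.8 to 68.3 per library, against 55.2 to 58.5 for all 11221 such genes.

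The remaining members were mostly weak at their ends. ABCA3, which loads surfactant lipid into lamellar bodies, had an end peak in all 6 libraries, and ABCA12, its epidermal counterpart, in none. In the cluster of ABCA genes on chromosome 17, ABCA5 was open in all 6 (heights 14 to 62) while ABCA6, ABCA8, ABCA9 and ABCA10 each had an end peak in 1 library, of height 2 to 5. The retinal flippase ABCA4 and the bile salt pump ABCB11 had none, and the very large ABCA13 had one in 3 libraries. The sulfonylurea receptors ABCC8 and ABCC9, subunits of potassium channels, had one in 1 and 3 libraries. ABCC12 had one in 5 libraries and ABCC6 in 3, and ABCC6 remains uncertain because near-identical pseudogene copies can share its reads.

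**Figure D2:**
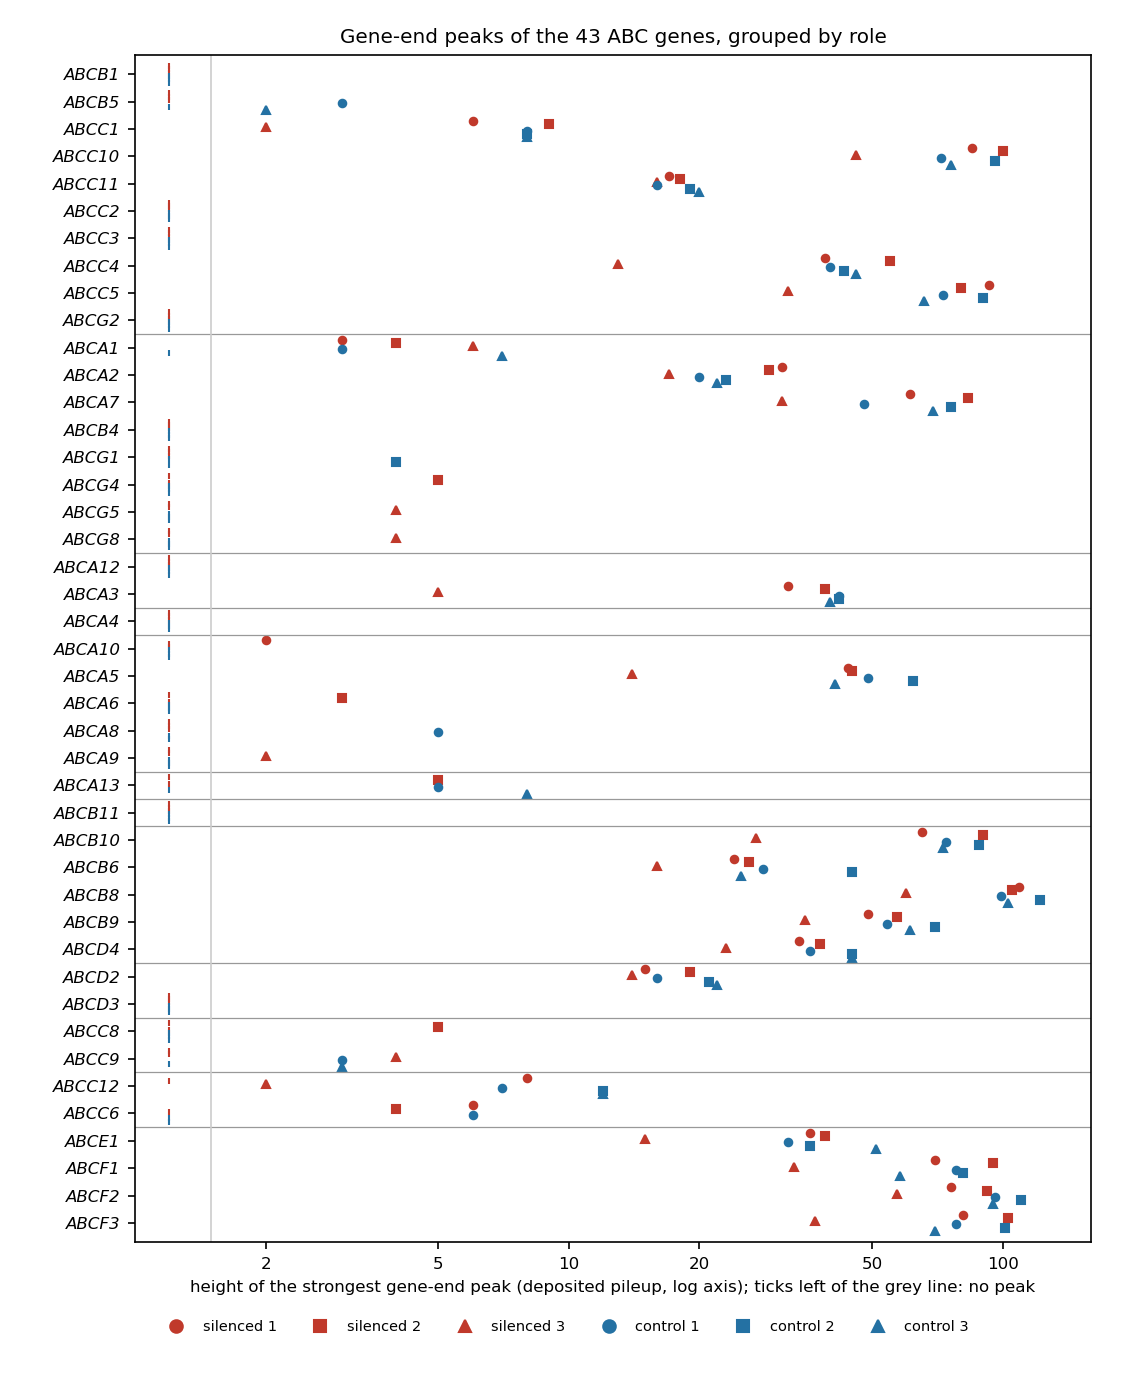
Height of the strongest end peak (deposited pileup, log axis) for the 43 ABC genes, 1 mark per library, with red for silenced and blue for control libraries and a shape for each replicate. Small ticks at the left mark libraries with no end peak. The ABCB8, ABCC10 and ABCF genes lie at the right, and silenced replicate 3 (red triangles) is at the left of most genes with 6 marks.

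The peroxisomal fatty acid transporters show how the count depends on which start is used. ABCD2 had a start peak in all 6 libraries (heights 14 to 22). The span of ABCD3 begins 33258 bp upstream of its listed start, and no peak lay at either end of that span. At the listed start itself (chr1:94417851-94419012) a region was called in all 6 libraries, with heights of 36, 43 and 13 in the silenced and 52, 57 and 47 in the control libraries. Counting listed starts as well as ends, 20 of 43 ABC genes were open in all 6 libraries. A second listed start of ABCB9, 8651 bp inside its span, also had a peak in every library (heights 53, 58 and 16 against 61, 88 and 57). ABCC11 had peaks in every library at 2 starts inside its span, and the stronger of them lies at an end of LONP2.

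The 250 bases upstream of the outermost listed start were compared for the 35 ABC genes with an entry in the promoter table. Inner starts, such as those of ABCB1 and ABCG2, were left out. A peak at the start is one within 1 kb of it. ABCA4, ABCA8, ABCB4, ABCB5, ABCC1, ABCC3, ABCC8 and ABCG1 were not analysed here. The ratio of observed to expected CpG had a median of 0.900 (range 0.434 to 1.09, n = 18) in genes with a peak at the start in all 6 libraries and 0.132 (range 0 to 0.731, n = 10) in genes with none. Over all 15101 promoters the medians were 0.843 for starts with a peak in all 6 libraries and 0.275 for starts with none. The classes overlapped. ABCC6, ABCG4 and ABCA10 had ratios of 0.579 to 0.731 and no peak at the start, while ABCD2, ABCA2 and ABCB8 had ratios of 0.434 to 0.548 and a peak there in all 6 libraries. ABCC9 had the highest ratio, 1.13, and a start peak in 3 libraries.

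The letters GGGCGG, the core of the SP1 motif, were searched on both strands. They occurred upstream of 14 of 18 open ABC starts (77.8%) and of 1 of 10 starts with no peak (10%), against 70.6% and 26.2% of all promoters in the same classes. The TEAD-type letters GGAATG occurred in 8 of 35 ABC windows (22.9%, against 10.1% of all promoters), among them ABCC5, ABCB6, ABCF1 and ABCD2. The windows of ABCG5 and ABCG8 overlap, and 1 match in the shared bases counts for both. The AP-1-type letters TGANTCA occurred in 1 of 35 (2.86%, against 4.95%), and TGACNNNGC, the core of the antioxidant response element, in 7 of 35 (20%, against 11.6%). CCAAT occurred in 6 of 35 (17.1%, against 34.2%). CACGTG, the E-box, also occurred in 6 (17.1%, against 7.76%), as did TATAAA (17.1%, against 9.42%). These are matches of letters in this window and were not tested as binding sites.

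**Figure D3:**
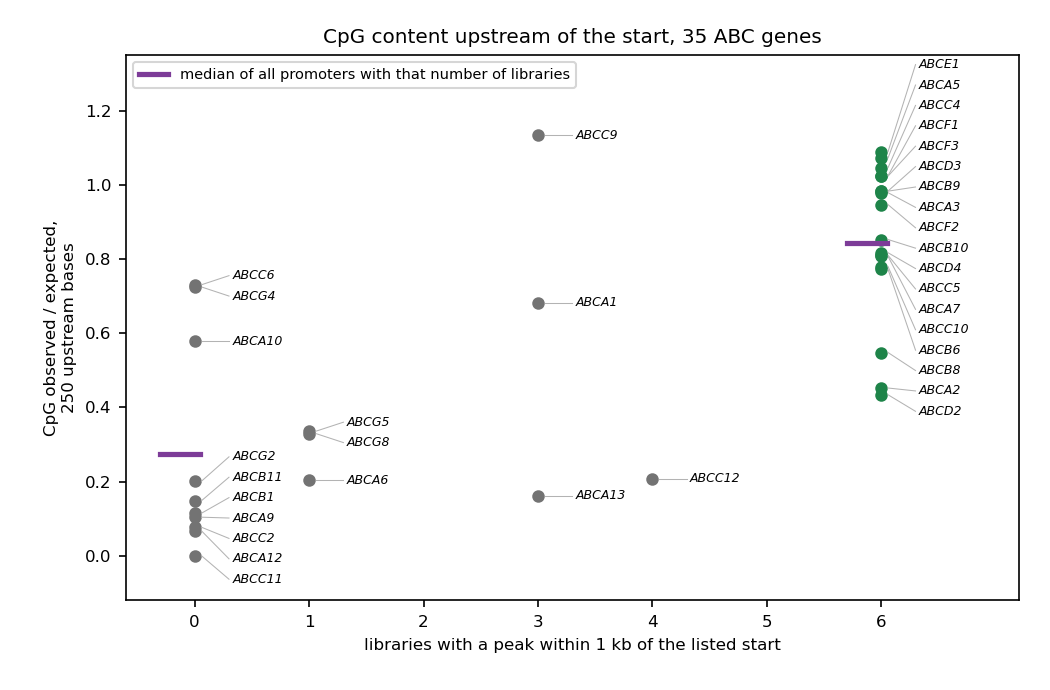
Observed over expected CpG in the 250 bases upstream of the outermost listed start (vertical axis) against the number of libraries with a peak within 1 kb of that start (horizontal axis) for 35 ABC genes. Purple bars mark the medians of all promoters, 0.275 with no library and 0.843 with all 6. The 18 genes open in all 6 libraries sit at or above 0.434, and 7 of the 10 with no peak sit at or below 0.201.

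Whether the gene-end peaks shifted in rank between the groups was tested with limma on normal scores. Within each library the 11221 genes with an end peak in all 6 were ranked by fold enrichment and the ranks were turned into scores of a standard normal distribution. None of the 19 ABC genes passed a Benjamini-Hochberg adjusted p of 0.05 in this limma fit (lowest adjusted p 0.939), against 0.00891% of all genes, which was the single gene MTMR4, named after its value was seen. At an unadjusted limma p under 0.05 there were 2 ABC genes, 1 in each direction, while 5.03% of all genes passed. Without silenced replicate 3 there were 0. The median difference, silenced minus control, was −0.083 over the 19 ABC genes and 0.012 over all genes, with 9 ABC genes higher and 10 lower. The scores of the groups did not overlap at 4 of the 19 ABC genes (ABCA2 and ABCC11 higher, ABCA3 and ABCB6 lower in the silenced libraries), against 10.7% of all genes. No test of that count was made.

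The 3 ABC genes with the largest positive moderated statistic were ABCA2, ABCC11 and ABCA7. ABCA2 had percentiles of 44.5, 35.4 and 53.5 in the silenced and 27.1, 26.4 and 34.3 in the control libraries, a score difference of 0.56 ± 0.25 (SE; adjusted p = 0.939, limma). Its 95% interval ran from 0.04 to 1.07, and without silenced replicate 3 the difference was 0.36. ABCC11 had percentiles of 50.9, 50.4 and 59.8 against 40.7, 44.9 and 49.6, and a score difference of 0.28 ± 0.22 (SE). At ABCA7 the percentiles were 45.0, 59.9 and 56.7 against 39.4, 48.4 and 55.8, and the difference was 0.20 ± 0.23 (SE). Without silenced replicate 3 the differences of ABCC11 and ABCA7 were 0.15 and 0.12. Values of ABCA7 overlapped between the groups, while those of the other two did not.

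The 3 with the largest negative statistic were ABCA3, ABCB6 and ABCC1. ABCA3 had heights of 32, 39 and 5 against 42, 42 and 40 and percentiles of 56.6, 53.3 and 13.5 against 65.2, 62.7 and 68.3. Its score difference was −0.80 ± 0.31 (SE; adjusted p = 0.939, limma), and −0.31 without silenced replicate 3. ABCB6, a porphyrin transporter, had heights of 24, 26 and 16 against 28, 45 and 25 and percentiles of 50.5, 43.5 and 48.7 against 60.1, 69.4 and 53.9, a difference of −0.39 ± 0.22 (SE) that was −0.42 without silenced replicate 3. ABCC1 had percentiles of 14.7, 22.9 and 0.97 against 20.1, 13.8 and 21.3. Its difference of −0.49 ± 0.39 (SE) was −0.03 without silenced replicate 3, so at ABCC1 and ABCA3 this 1 library carried most of the difference.

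The remaining 13 ABC genes differed by −0.27 to 0.18. Without silenced replicate 3 their differences were wider, from −0.41 at ABCF2 to 0.34 at ABCC5. ABCF3 changed sign, from −0.09 to 0.15. ABCB10, a mitochondrial transporter, had the smallest difference (0.00022, 95% interval −0.43 to 0.43). On this scale 1 unit is 1 standard deviation of all genes, and the median SE of the 19 differences was 0.23, so shifts of that size could not be told from 0 at 3 libraries a group.

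**Figure D4:**
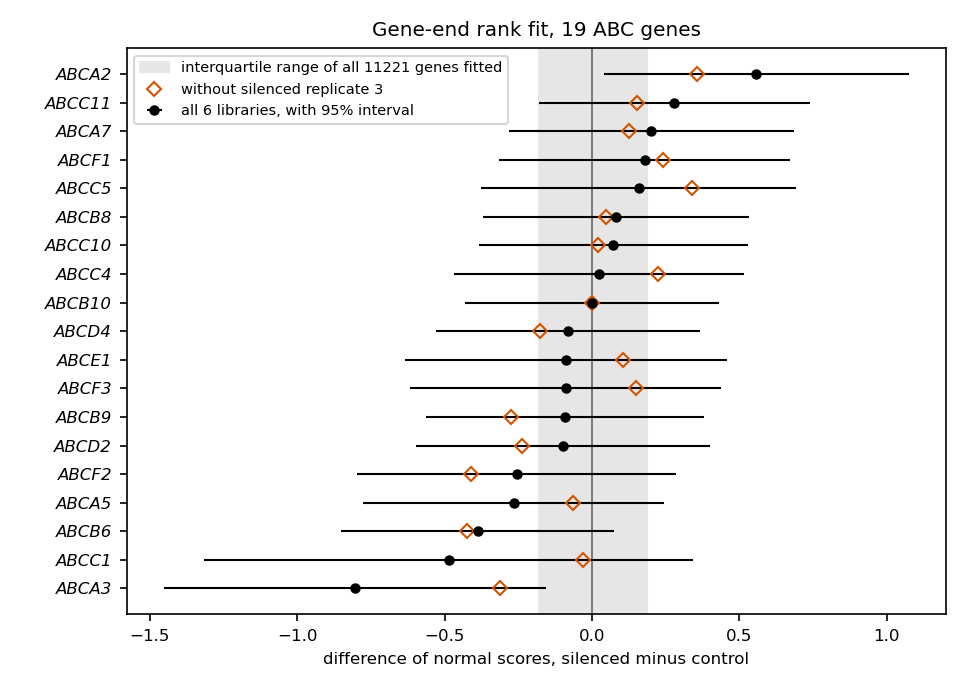
Difference of normal scores, silenced minus control (horizontal axis), for the 19 ABC genes with an end peak in all 6 libraries. Black points are the estimates with their 95% intervals, orange diamonds the estimates without silenced replicate 3, and the grey band spans the interquartile range of all 11221 genes, −0.18 to 0.19. The intervals of ABCA3 and ABCA2 exclude 0 before adjustment. The diamonds of ABCA2, ABCC11, ABCA7, ABCA5, ABCA3, ABCC1, ABCC10 and ABCB8 lie closer to 0 than their points. Those of all other genes, among them ABCF2, ABCC5, ABCC4 and ABCB9, lie farther from 0.

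The 2 genes at the extremes differ in the composition of their upstream bases, which are printed for comparison in the same format (GRCh38.p14, RefSeq).
ABCA2, chr9:137028923-137029172, minus strand: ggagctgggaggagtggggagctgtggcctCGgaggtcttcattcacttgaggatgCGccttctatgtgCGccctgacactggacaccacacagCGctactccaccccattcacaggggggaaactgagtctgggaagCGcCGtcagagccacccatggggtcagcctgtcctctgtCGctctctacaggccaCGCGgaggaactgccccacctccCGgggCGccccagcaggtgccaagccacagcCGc
ABCA3, chr16:2340729-2340978, minus strand: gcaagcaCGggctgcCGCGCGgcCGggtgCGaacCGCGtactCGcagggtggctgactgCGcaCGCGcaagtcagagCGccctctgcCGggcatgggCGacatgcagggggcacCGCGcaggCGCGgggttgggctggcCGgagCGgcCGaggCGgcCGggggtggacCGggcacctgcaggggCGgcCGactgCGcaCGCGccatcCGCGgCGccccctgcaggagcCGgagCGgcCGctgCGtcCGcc
ABCA2 holds 12 CG dinucleotides here and ABCA3 holds 38. Their G and C content is 65.2% and 79.2%. The strongest ABCA2 end peak lay wholly upstream of the printed window in every library except control replicate 1, where it covered the window. Whether base composition bears on the rank differences was not tested.

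Peaks anywhere in the spans were counted next. The spans of the 43 genes cover 4.04 Mb, and 293, 295 and 205 peaks overlapped them in the silenced and 325, 165 and 308 in the control libraries. These counts made up 0.187%, 0.182% and 0.174% of all autosomal peaks in the silenced libraries and 0.197%, 0.186% and 0.192% in the controls. On average 0.181% ± 0.00656 (SD, n = 3) of silenced and 0.191% ± 0.00553 (SD, n = 3) of control peaks overlapped an ABC gene. Silenced replicate 1 lay above control replicate 2, so the groups overlapped, and the 95% Wilson intervals of the 6 shares ranged from 0.152% to 0.219%, counting error only. The difference of −0.0107 percentage points turned to 0.00602 when only peaks with an FDR of at most 1e-05 were kept. The density of peaks in ABC spans was 4.08 to 8.05 per 100 kb, against 4.25 to 7.12 over the spans of all protein-coding genes.

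Density varied widely within the family. ABCA12, a gene of 207 kb, had a mean of 2.01 peaks per 100 kb. ABCD2 followed with 2.82, and ABCB1, ABCB4, ABCB5 and ABCG2 with 3.33 to 3.65. At the top were the short genes ABCA7 with 30.1 and ABCB6 with 21.8 per 100 kb. ABCA13, the longest span at 476 kb, held 13 to 46 peaks per library, of which a mean of 2.83 had an FDR of at most 1e-05.

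Merging the 6 lists at an overlap of 1 bp gave 927 regions in ABC spans, of which 686 (74.0%) came from 1 library, against 74.1% of all 491491 autosomal regions. Regions called in all 6 libraries numbered 72 (7.77%, against 7.35%). Of these, 21 lay at an ABC gene end and 51 inside a span, 4 of them at an end of another gene. At least 1 such region was present in 36 of 43 ABC genes, and 17 genes had one inside the span although they had no end peak in all 6 libraries. ABCA8, ABCA9, ABCA12, ABCB4, ABCC9, ABCG2 and ABCG5 had none.

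Regions at ends were higher than those inside spans. The median of the regions' median heights was 41.5 at ends (8 to 104, n = 21) and 18 inside spans (3.5 to 57.5, n = 51). The regions inside spans include those at inner listed starts of ABCD3, ABCB9 and ABCC11. The highest of them, 57.5, is at the inner start of ABCB9. The 10 drug pumps held 16 of the regions inside spans and the 8 cholesterol and phospholipid exporters 10. These counts were not scaled to the length of the spans, which differs between the groups. ABCC1 alone had 5, with heights of 6 to 27, although its end peak was weak. ABCA4, the retinal gene, had 3 and no end peak, the strongest at chr1:94045526-94046118 with heights of 32, 38 and 24 against 37, 33 and 30. ABCG8 had a single strong region, chr2:43877736-43878437, with 33, 45 and 31 against 36, 48 and 35.

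One ABC region was called in 3 control and 0 silenced libraries and none the other way, against 0.203% and 0.131% of all regions. It lies inside ABCC1 (chr16:16063754-16064197) and is weak, with heights of 3, 4 and 2 and an FDR of 0.516 in its weakest library. With 3 libraries per group such a pattern cannot go below p = 0.1 in a two-sided exact test.

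The 72 regions were also tested for a shift in rank among all 36132 regions called in all 6 libraries. No region of the genome passed an adjusted p of 0.05 (limma; 0% called, lowest adjusted p 0.962). At an unadjusted limma p under 0.05, 3 ABC regions were lower and 0 higher in the silenced libraries, against 4.69% of all regions in either direction. Scores of the groups did not overlap at 8 of the 72, against 10.2% of all regions. The median difference was −0.037 over the ABC regions and 0.0066 over all.

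The 3 lowest regions were the ABCD3 start, the ABCA3 start and the inner start of ABCB9. At the ABCD3 start the score difference was −0.61 ± 0.21 (SE), with the heights given above. At the ABCA3 start (chr16:2340596-2341259) it was −0.87 ± 0.36 (SE), and at the ABCB9 start (chr12:122965976-122966913) −0.55 ± 0.24 (SE). In all 3 the lowest height was in silenced replicate 3, and without it the differences were −0.42, −0.25 and −0.29. The 3 highest were a second region of ABCB9, the ABCA2 start and a weak region of ABCD3. The ABCB9 region (chr12:122952304-122953031) had heights of 27, 35 and 16 against 21, 19 and 29 and a difference of 0.50 ± 0.24 (SE). The ABCA2 start (chr9:137028803-137029732) differed by 0.59 ± 0.29 (SE). The ABCD3 region (chr1:94463697-94464055) had heights of 5, 4 and 7 against 3, 5 and 4 and a difference of 0.88 ± 0.50 (SE). Without silenced replicate 3 these 3 differences were 0.56, 0.43 and 0.39, in the same order. Regions of 1 gene thus lay on both sides of 0 in ABCB9 and ABCD3.

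**Figure D5:**
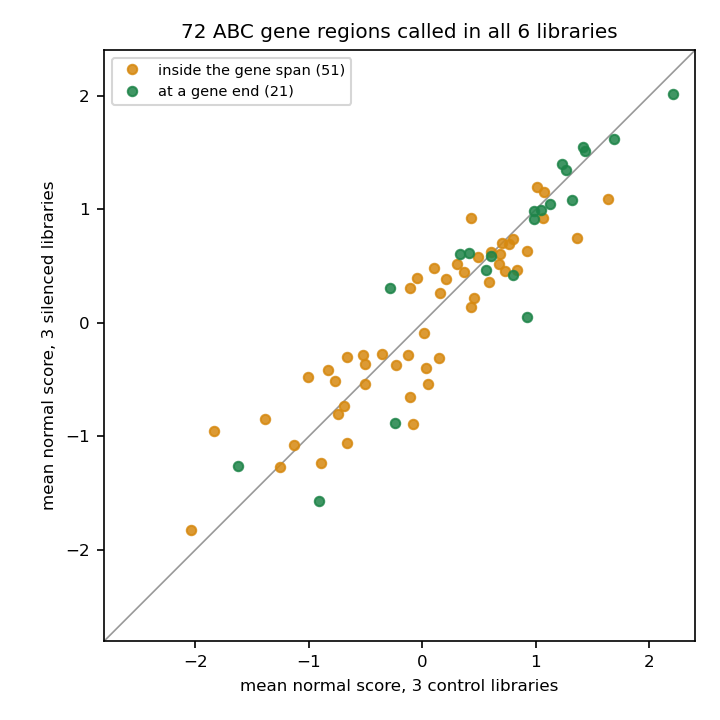
Mean normal score in the 3 silenced libraries (vertical axis) against that in the 3 control libraries (horizontal axis) for the 72 ABC gene regions called in all 6 libraries, at a gene end (green, 21) or inside the span (orange, 51). The line marks equal scores, and the points lie on both sides of it, 33 above and 39 below.

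Genes of the same pathways were set beside the transporters. Among family members whose symbols fall outside the selection, TAP1 and TAP2, which load peptides for antigen presentation, had an end peak in all 6 libraries, and the chloride channel CFTR had one in 1 library. Of 16 regulators of ABC genes, 11 were open in all 6 libraries, against 58.7% of all autosomal protein-coding genes. These 11 included both LXR genes NR1H2 and NR1H3, AHR, NFE2L2, HIF1A, SP1 and SREBF2. NR1I2 and NR1I3, the xenobiotic receptors PXR and CAR that drive drug-pump genes in liver, had weak end peaks in 3 and 1 libraries (heights 3 to 4). Of 8 partner genes, 6 were open in all 6 libraries, against the same 58.7% of all genes. Among them were PEX19, the peroxisomal import receptor, and HBS1L and PELO, which act with ABCE1. Neither count was tested against that share. None of the 11 regulators or 6 partners in the limma fit passed an adjusted p of 0.05 (lowest 0.939 and 0.948) or an unadjusted p of 0.05.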

How the data were processed

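The ABC genes and the gene, marker and motif lists were chosen with earlier results of these data known. Reads were processed by the authors with tools that include Trimmomatic 0.36, Bowtie2 2.2.6, Picard 2.8.2, MACS2 2.1.1 and bedtools 2.25.0 on GRCh38, per the submitters' processing notes. Settings are not given in the sources used here. The authors deposited 1 peak list per library. Per the file headers, each deposited peak has a fold enrichment (a ratio), a p-value, an FDR and a pileup signal, here called height. The deposited p-values end near 0.00987, so the lists hold many weak peaks. Heights move with depth, and ranks were therefore taken within each list.

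Gene spans came from a RefSeq table of GRCh38.p14 without strand or exons. Strand and upstream sequence came from a RefSeq promoter table. Background coverage was (height + 1) / fold enrichment − 1, at its lowest per list. Percentiles rank the strongest end peak of a gene by fold enrichment among all genes with one in that library. The rank fits used limma 3.58.1 in R 4.3.3 (functions lmFit and eBayes, the prior variance following mean score) and Benjamini-Hochberg adjustment over all features, and were tested on simulated data. Counts and shares were described without a test.

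Values per library were named for drug pumps and cholesterol and phospholipid exporters with an end peak in all 6 libraries, for the 3 genes and 3 regions with the largest moderated statistic in each direction, for genes whose groups differed by at least 2 libraries, and for regions called in 1 group only. Other genes and regions given with values were chosen after seeing them. Alternatives changed the FDR, list size, height, distance, ranking and pairing, and left out each library in turn. Some genes of the fixed lists are not reported here.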

Additional observations from a re-analysis of the deposited data

How the results depend on the processing

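No ABC gene or region passed the adjusted limma threshold in any of the settings run for the gene-end fit, and the region fit called 0 regions in every setting. The gene-end fit called 1 gene of all genes. It called 3 when genes with an end peak in at least 3 libraries were used, 2 when ranked by height, 0 with midpoints within 500 bp and 0 within 2 kb, and 1 to 3 without 1 library. With the replicate number as a block in the paired fit it called 1 gene and 0 regions. The labels do not say that numbers mark shared handling. Deviations of same-numbered libraries had correlations of −0.00496, −0.000177 and −0.000673 over 11221 genes. With 3 libraries per group these values cannot show whether equal numbers were handled together.

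The difference in the number of ABC genes with an end peak moved by less than the spread in the main setting under each alternative (−1 to 0.667, and −0.667 to 1.83 without 1 library). At an FDR of at most 1e-05 the counts were 19, 19 and 18 against 19, 19 and 21. The difference in the share of peaks in ABC spans, −0.0107 percentage points, became 0.00602 with an FDR of at most 1e-05 and 0.00151 with a height of at least 4, and was −0.0138 to −0.00727 without 1 library. The cause was not tested. The count of ABC regions called in 1 group only, 1, became 0 with an FDR of at most 1e-05, 3 with an FDR under 0.05 and 2 with a height of at least 4. It was 5 to 14 without any 1 of the 6 libraries, where a group of 2 suffices, and highest without control replicate 2. Leaving out a silenced library gave 6 or 7 silenced-only and 2 or 3 control-only regions. Leaving out a control library gave 0 or 1 silenced-only and 5 to 14 control-only regions. The shares over all regions in these settings are not given here, so these counts lack a comparison. The count of 19 ABC genes open in all libraries ranged from 17 to 21 in alternatives chosen after seeing the data. Read depth is not given in the sources used here, and its part in the calls of the weakest peaks was not tested.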
